A study of Mus musculus with 441 samples.

Results

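The regulatory T cells (Tregs) of mouse pancreatic islets described here were the 118 cells, of 441 in all, that the authors' annotation named Treg cell. Of these, 115 came from the sort with the Ins tetramer (257 cells) and 3 from the sort with the HIP tetramer (184 cells). A tetramer is a linked set of MHC class II molecules loaded with a peptide, used to stain T cells whose receptor recognises it; the labels give Ins and HIP without spelling them out, and both sorts were meant to hold beta-cell-specific CD4 T cells. By its title the series asks how fast loss of CLIP, the placeholder peptide of MHC class II, bears on antigen presentation in autoimmunity. Single cells from collagenase-digested islets were sorted by FACS and profiled with SMART-Seq2, which reads transcripts along their full length. The labels give no strain, genotype, age, treatment or animal, so each sort counted as 1 sample: the values below carry no replicate error and no test was made. Other annotated classes of the Ins sort were 61 T follicular helper cells, which help B cells make antibody, 25 cells named activated CD4 T cells, 35 dividing ones and 21 cells named B cells.

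Tregs restrain immune responses, and their identity rests on the transcription factor Foxp3. They compete for interleukin 2 through its high-affinity receptor, reduce costimulation through CTLA-4, break down extracellular ATP and secrete inhibitory cytokines such as interleukin 10. Tregs that settle in tissues lose the receptors of lymph node recirculation and carry chemokine receptors and integrins that hold them at sites of inflammation, and in the islet their loss lets autoimmune diabetes advance.

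Levels are given as TPM, a transcript's share scaled so that each cell sums to 1000000, and a gene was called detected at 1 TPM or more. Shares of cells carry exact Clopper-Pearson 95% intervals in parentheses, which cover counting error only (for a share of 0, the limit printed is 3 cells of the class), and means carry the SD over the cells of a class, a measure of spread within the sample. TPM keeps no sequencing depth, so the number of genes detected per cell is the only measure of it: 2017 at the median in Ins Tregs (694 to 3399), 1963 in T follicular helper cells and 1862 in activated cells. Blocks of 96 consecutive cell numbers, which the labels do not tie to plates, held 31, 40 and 44 of the Ins Tregs (blocks 2, 4 and 5), with medians of 2226, 2148 and 1848 genes. Block 5 thus had the lowest gene number. Rn45s, a ribosomal RNA precursor, held 2.42% of TPM at the median (1.36% to 10.9%). A listed 0 can be a failed capture, since the housekeeping gene Gapdh was at 0 in 10 of the 115 cells.

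The annotated class carried its markers. Foxp3 (chromosome X, 7573644 to 7595245, build GRCm38, the same as mm10) was detected in 94 of 115 cells (81.7%, 73.5% to 88.3%), with levels of 0 TPM at the lowest, 489.6 at the median and 2032 at the highest. It was found in 13.1% (5.84% to 24.2%) of T follicular helper cells and 16.0% (4.54% to 36.1%) of activated cells, where the median was 0 in both and the highest cell held 401 and 887 TPM, so single cells of the 3 classes overlapped. In the 21 cells annotated as B cells, which should lack the gene, it was found in 1 (4.76%). Itgae, the integrin chain CD103 that binds E-cadherin on epithelium (chromosome 11, 73090583 to 73147446), was found in 84 of 115 cells (73.0%, 64.0% to 80.9%), against 4.92% and 4.00%. These were the markers with the sharpest contrast: mean Itgae was 659 ± 778 TPM in Tregs, 7.82 ± 58.5 TPM in T follicular helper cells and 19.8 ± 98.7 TPM in activated cells.

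Other markers were shared more widely. Lag3, an inhibitory receptor for MHC class II, was found in 98.3% (93.9% to 99.8%) of Tregs with levels of 0 TPM at the lowest, 3545 at the median and 18455 at the highest, and also in 78.7% of T follicular helper and 92.0% of activated cells. Tnfrsf18, the costimulatory receptor GITR, was found in 90.4% (83.5% to 95.1%), against 47.5% and 76.0%. Capg, an actin-capping protein, was found in 79.1% (70.6% to 86.1%) and Ctla4, the inhibitory competitor of CD28, in 78.3% (69.6% to 85.4%). Activated cells had both in 64.0%. Mean Ctla4 was 858 ± 997 TPM in Tregs and 920 ± 1632 TPM in activated cells, so its level was not lower there. Mean Capg was 1468 ± 1386 TPM and 740 ± 945 TPM. The transcription factor Ikzf2 (Helios) was found in 59.1% (49.6% to 68.2%), at a low 49.0 ± 76.8 TPM, and 36.1% of T follicular helper cells also had it. Dividing cells, with a median of 3610 genes detected, had Ikzf2 in 77.1%, Ctla4 in 88.6% and Capg in 85.7%, shares above those of Tregs. They had Lag3 in 94.3% and Tnfrsf18 in 82.9%. Mean TPM of these genes was lower in dividing cells than in Tregs, such as 22.0 for Ikzf2 and 491 for Ctla4. Il2ra, the high-affinity interleukin 2 receptor chain CD25, was the marker least often found, in 34.8% (26.1% to 44.2%) of Tregs with a mean of 34.9 ± 90.7 TPM. It was found in 4.92% of T follicular helper, 8.00% of activated and 51.4% of dividing cells. Its partner chains Il2rb and Il2rg were found in 90.4% and 93.0% of Tregs.

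Differences between classes are given as Treg minus the other class in mean log2(TPM + 1). A gene met the difference rule if this was at least 2 in size with the same sign within each of the 3 Ins blocks. The classes carry cluster numbers and were taken to be cut from the same values, so such counts describe the class and are not evidence for it. Against T follicular helper cells 6 of the 8 markers met the rule as higher in Tregs, where 1.16% of the 13561 genes did (157 genes), and none as lower, where 0.243% did (33 genes). Differences were 6.49 for Itgae, 6.44 for Foxp3, 5.18 for Tnfrsf18, 5.16 for Capg, 4.96 for Ctla4 and 4.60 for Lag3. Against activated cells 3 met it as higher (Itgae 6.34, Foxp3 6.20 and Tnfrsf18 2.19), where 0.597% of genes did (81), and none as lower, where 0.243% did (33). Ctla4 fell short of it (1.33), with a difference that changed sign between blocks (from -0.61 to 5.63). The count against activated cells, 114 genes in both directions, was 193, 244 and 253 without blocks 2, 4 and 5 in turn, where the sign had to hold in 2 blocks.

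**Figure D1:**
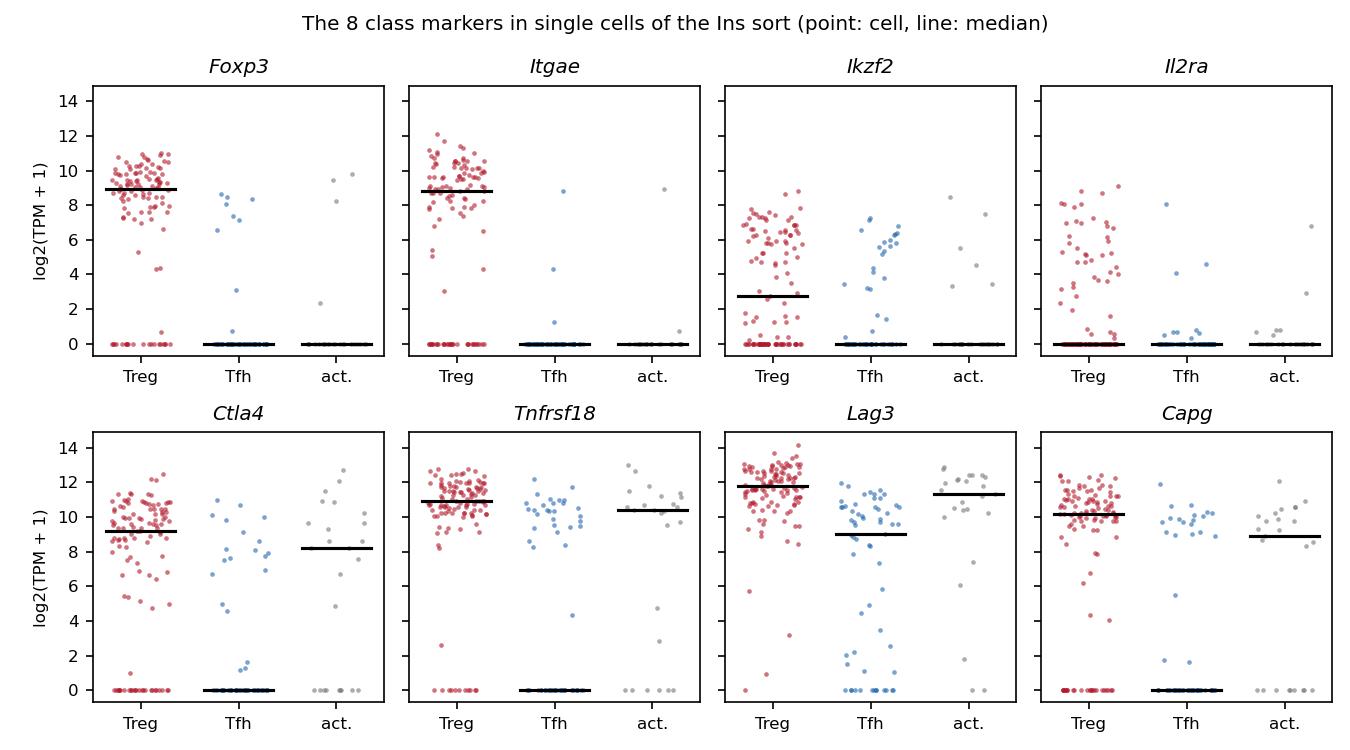
Levels of the 8 class markers in log2(TPM + 1), 1 point a cell and a line at the median, for 115 Tregs, 61 T follicular helper cells (Tfh) and 25 activated CD4 T cells (act.) of the Ins sort. Foxp3 and Itgae have a median of 0 outside Tregs, while Lag3 and Tnfrsf18 lie high in many activated cells too.

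Most single Tregs carried several markers together. The number detected per cell was 6 of 8 at the median (1 to 8), against 2 in T follicular helper cells and 3 in activated cells, and 104 of 115 Tregs (90.4%, 83.5% to 95.1%) had at least 5. All 8 were found in 9 Tregs, and 3 Tregs had 2 or fewer. Among T follicular helper cells 9 of 61 (14.8%, 6.98% to 26.2%) and among activated cells 7 of 25 (28.0%, 12.1% to 49.4%) had at least 5. Cells of the dividing class had 6 at the median, and Foxp3 was found in 27 of those 35 (77.1%), but Itgae in 28.6%. Cells that carried Foxp3 therefore also lay outside the annotated class.

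The 21 Tregs without detected Foxp3 held many of the other markers. Of the 7 other markers both sets had 5 at the median. Itgae was found in 71.4% (47.8% to 88.7%) of cells without Foxp3 and 73.4% (63.3% to 82.0%) of cells with it, Ctla4 in 76.2% and 78.7%, and Tnfrsf18 in 90.48% and 90.43%. Of helper cell genes, Tcf7 was found in 1 of 21 and 2 of 94 cells, Cd40lg in 0 of 21 and 1 of 94, and Cxcr5 in 3 of 21 and 10 of 94. The intervals of the 2 sets overlapped for Ikzf2 (42.9%, 21.8% to 66.0%, and 62.8%, 52.2% to 72.5%) and Ccr8 (38.1% and 55.3%), the genes furthest apart among those compared. Cells without Foxp3 had fewer genes detected (median 1746 against 2076); the part of this in the missing Foxp3 was not tested. By block Foxp3 was found in 96.8%, 87.5% and 65.9% of Tregs.

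The 3 Tregs of the HIP sort, all in block 3, did not look alike. The first held Ctla4 (730.8 TPM) and Lag3 (2132 TPM) but none of the other 6 markers, and it had Cxcr6 at 3804 TPM and Tigit at 2.75 TPM. The second held 7 of 8 markers, with Foxp3 at 82.9 TPM, Itgae at 652 TPM, Tnfrsf18 at 9382 TPM and Lag3 at 7972 TPM. The third held 5, with Lag3 at 7360 TPM and Il2ra at 19.1 TPM but Foxp3 and Itgae at 0. Foxp3 was thus detected in 1 of 3, and the first cell went against its annotation by most markers. All later shares are of the 115 Ins Tregs.

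**Figure D2:**
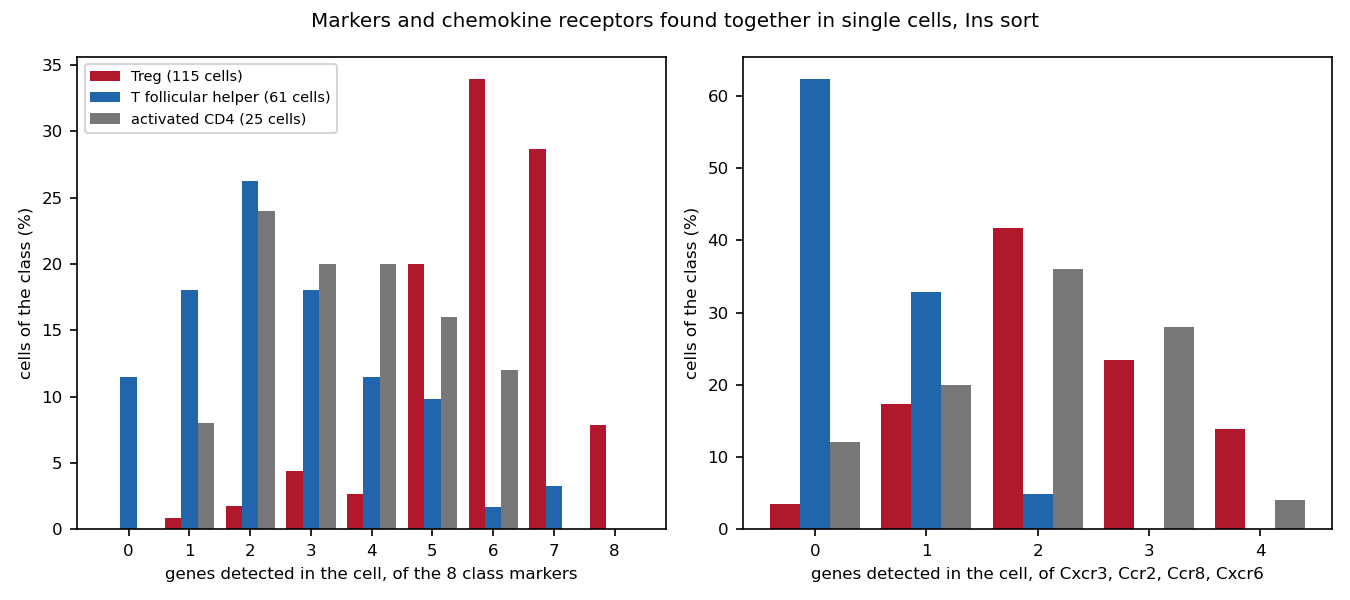
Share of cells (%) by the number of genes detected in the same cell, out of the 8 class markers (left) and out of 4 chemokine receptor genes (right), for Tregs, T follicular helper and activated CD4 T cells of the Ins sort. Most Tregs have 5 to 7 markers and 2 or 3 chemokine receptors, and no T follicular helper cell has more than 2 receptors.

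The genes of suppression higher than in T follicular helper cells were Ctla4, Lag3, Tigit, Icos, Il10, Entpd1 and Lgals1. Of 24 such genes in the table, 16 were detected in at least 10% of Tregs, 7 met the difference rule as higher and 1 as lower than in T follicular helper cells, with a median difference of 0.38 over the list against 0 over all genes. Of all 13561 genes, the background for this and every later list, 5315 were detected in at least 10% of Tregs. Against T follicular helper cells 1.16% of all genes met the rule as higher and 0.243% as lower. Against activated cells 0.597% and 0.243% did. Tigit, an inhibitory receptor that competes with CD226, was found in 98.3% (93.9% to 99.8%) of Tregs at 5105 ± 2883 TPM, the eighth highest mean once ribosomal protein genes and unnamed models were left out. It was found in 100.0% of activated cells (4768 ± 3288 TPM) and 77.0% of T follicular helper cells (1728 ± 1914 TPM). Lgals1, the secreted lectin galectin 1, was found in 91.3% (84.6% to 95.8%) and Icos, a costimulatory receptor, in 73.9% (64.9% to 81.7%) of Tregs. T follicular helper cells had them in 45.9% and 54.1%, and activated cells in 88.0% and 48.0%.

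Il10 (chromosome 1, 131019845 to 131024974), the inhibitory cytokine, was found in 52 of 115 cells (45.2%, 35.9% to 54.8%), against 3.28% (0.400% to 11.3%) of T follicular helper and 20.0% (6.83% to 40.7%) of activated cells. Levels were 0 TPM at the lowest, 0 at the median and 5384 at the highest in Tregs, so the range over cells was wide. It was the suppression gene that met the rule as higher against activated cells too (3.82 and 2.48). By block it was found in 48.4%, 55.0% and 34.1%. Entpd1, the ectonucleotidase CD39, was found in 41.7% (32.6% to 51.3%) of Tregs, 4.92% of T follicular helper, 24.0% of activated and 48.6% of dividing cells.

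Smaller sets of Tregs held cytotoxic or secreted effectors. Gzmb, the protease granzyme B, was found in 18.3% (11.7% to 26.5%) of Tregs, 0 of 61 T follicular helper cells, which allows up to 4.92%, and 1 of 25 activated cells. Its median where detected in Tregs was 932 TPM, and 20.0% of dividing cells had it. Fgl2, a secreted inhibitory protein, was found in 22.6% (15.3% to 31.3%) and Havcr2, the inhibitory receptor TIM-3, in 23.5% (16.1% to 32.3%), each in 0 of 61 T follicular helper cells. Activated cells had them in 4.00% and 8.00%, and dividing cells in 11.4% and 22.9%. Mean Havcr2 was 78.1 TPM in Tregs and 81.2 TPM in activated cells. Pdcd1, which encodes PD-1, was found in 40.9% of Tregs, 55.7% of T follicular helper and 60.0% of activated cells, short of the rule in both comparisons; the difference changed sign between blocks (from -3.56 to 1.19 and from -5.47 to 0.67). Cd200 and Lgals3 met the rule as lower than in activated cells (-2.01 and -2.08), and Cd83 as lower than in T follicular helper cells (-3.15). Transcripts of transforming growth factor beta were scarce: Tgfb1 was found in 2.61% (0.541% to 7.43%) and Lrrc32, which anchors its latent form, in 5.22% (1.94% to 11.0%). Ebi3, a subunit of interleukin 35, was found in 0 of 115 cells, which allows up to 2.61%.

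These effectors were spread over cells. Of Ctla4, Il10, Entpd1, Fgl2 and Gzmb, 10 Tregs had none, 26 had 1, 45 had 2, 20 had 3, 9 had 4 and 5 had all 5, and the median gene number was 1910 in the first set and 2420 in the last. Gzmb was found in 14 of 52 Tregs with Il10 (26.9%, 15.6% to 41.0%) and in 7 of 63 without (11.1%, 4.59% to 21.6%). Entpd1 was found in 46.2% and 38.1% of the same sets, and Prdm1, a factor linked to interleukin 10 production, in 36.5% and 38.1%. The intervals overlapped in each case.

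**Figure D3:**
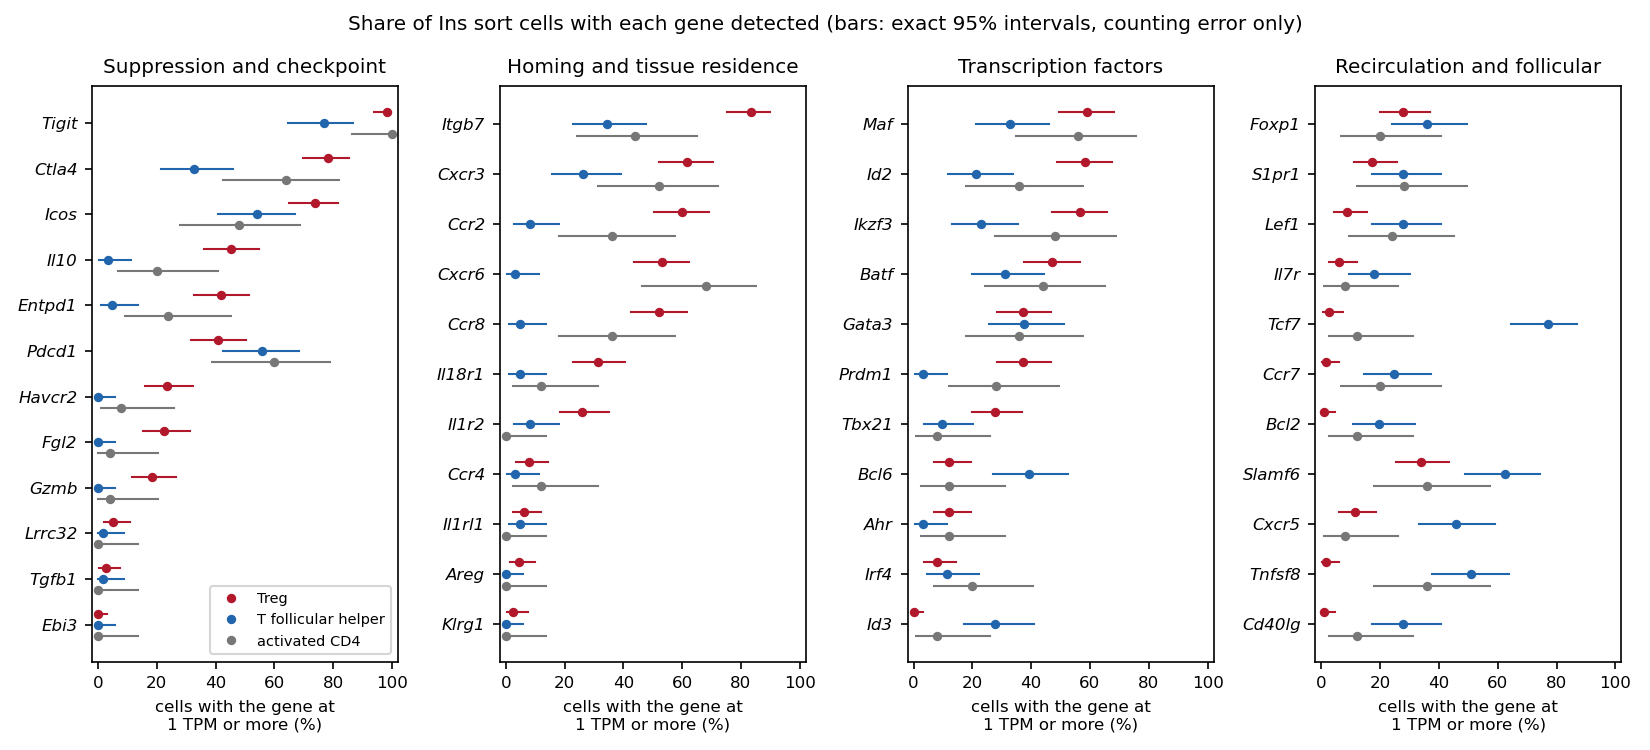
Share of Ins sort cells (%) with each gene at 1 TPM or more, with exact 95% intervals as bars, in Tregs, T follicular helper and activated CD4 T cells, for genes of suppression, homing, transcription and recirculation. Il10, Ccr2, Cxcr6 and Ccr8 are rare in T follicular helper cells, Tcf7 is near 0 in Tregs, and Il1rl1, Areg and Klrg1 lie under 10% in all classes.

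Homing and residence genes made up the longest list. Of 42 tissue Treg genes, 25 were detected in at least 10% of Tregs, as were 5315 of all 13561 genes. In this list 17 met the rule as higher and 2 as lower than in T follicular helper cells (median difference 0.48), where 1.16% and 0.243% of all genes did. The 17 include the class markers Itgae and Capg. Against activated cells 5 were higher and 2 lower (median 0.21), where 0.597% and 0.243% of all genes were. The others fell short of the rule, which does not show that their levels were equal. Those higher in both were Itgae, Itgb7, Ccr2 and Fam129a. Itgb7, the beta chain that pairs with CD103, was found in 96 of 115 cells (83.5%, 75.4% to 89.7%), against 34.4% (22.7% to 47.7%) and 44.0% (24.4% to 65.1%), at 802 ± 699.5 TPM, 236 ± 435 TPM and 488 ± 704 TPM. Selplg, the selectin ligand PSGL-1, was found in 80.9% (72.5% to 87.6%) of Tregs and 80.0% of activated cells. Among the integrin chains, Itgal (LFA-1) was found at about equal shares in the 3 classes (70.4%, 70.5% and 68.0%), Itga4 was found in 48.7%, 54.1% and 68.0%, and Itgb1 was lower than in T follicular helper cells (-2.03).

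The 4 chemokine receptors of inflamed tissue described next were each found in 52.2% to 61.7% of Tregs. Cxcr3, a receptor for interferon-induced chemokines, was found in 61.7% (52.2% to 70.6%) of Tregs, 26.2% of T follicular helper and 52.0% of activated cells. Ccr2, a receptor for monocyte chemokines (chromosome 9, 124101950 to 124113557), was found in 60.0% (50.4% to 69.0%), 8.20% and 36.0%, with levels of 0 TPM at the lowest, 45.1 at the median and 2335 at the highest in Tregs. In T follicular helper cells its highest value was 12.0 TPM, so the detected cells of that class were at trace level. Cxcr6, the receptor for CXCL16, was found in 53.0% (43.5% to 62.4%), 3.28% and 68.0%. Ccr8, a receptor of tissue Tregs, was found in 52.2% (42.7% to 61.6%), 4.92% and 36.0%. All 4 met the rule as higher than in T follicular helper cells, at 4.96 for Cxcr6, 4.74 for Ccr8, 4.43 for Ccr2 and 3.36 for Cxcr3. Against activated cells Cxcr6 and Ccr8 differed in sign between blocks (from -3.60 to 1.68 and from -2.76 to 3.64).

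Single Tregs held these receptors in many combinations. Of the 4, 4 Tregs had none, 20 had 1, 48 had 2, 27 had 3 and 16 had all 4. Cxcr6 was found in 54.9% (42.7% to 66.8%) of Tregs with Cxcr3 and 50.0% (34.6% to 65.4%) of those without, Ccr2 in 57.7% and 63.6% of Tregs with and without Cxcr3, and Ccr2 in 61.7% and 58.2% of Tregs with and without Ccr8. The intervals overlapped in each case, which does not show that the receptors were unrelated. The Spearman rho of these 3 pairs over 115 cells was 0.083, -0.078 and -0.012.

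Some genes of Tregs in fat, skin and gut were at 0 or rare, whereas Itgae, Itgb7 and Ccr8 of the tissue list were frequent. Il1rl1, the interleukin 33 receptor ST2 of fat and barrier tissue Tregs, was found in 6.09% (2.48% to 12.1%) of Tregs, but its highest value was 2.10 TPM. It was in 0% at a threshold of 10 TPM and in 27.0% above 0 TPM, so its share depended on the threshold. Areg, the repair factor amphiregulin, was found in 4.35% (1.43% to 9.85%) and Klrg1, a marker of terminal differentiation, in 2.61% (0.541% to 7.43%). Ccr10, Gpr15, Il9r, Dgat2 and Plac8 were detected in 0 of 115 Tregs, which allows up to 2.61% each. Receptors for other alarmins were more frequent: Il18r1, for interleukin 18, was found in 31.3% (23.0% to 40.6%) of Tregs against 4.92% and 12.0%. Il1r2, the decoy receptor for interleukin 1, was found in 26.1% (18.3% to 35.1%) against 8.20% and 0 of 25, with a highest value of 17813 TPM. Ccr8 was found in 22 of the 30 Tregs with Il1r2 (73.3%, 54.1% to 87.7%) and in 38 of the 85 without (44.7%, 33.9% to 55.9%). Their Spearman rho over 115 cells was 0.29. The intervals overlapped, which does not show that the 2 genes were unrelated.

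Other members of the tissue list differed widely in share. S100a4, a calcium-binding protein, was found in 27.0% (19.1% to 36.0%) of Tregs, 3.28% of T follicular helper and 24.0% of activated cells. S100a6 was found in 66.1% (56.7% to 74.7%) of Tregs, 16.4% of T follicular helper and 56.0% of activated cells, and Crip1 in 66.1% (56.7% to 74.7%), 36.1% and 64.0%. Anxa2, which encodes annexin A2, and Cd44, the hyaluronan receptor, met the rule as lower than in activated cells (-3.94 and -2.30); Anxa2 was found in 48.7% of Tregs and 84.0% of activated cells. Fam129a was found in 41.7% (32.6% to 51.3%) of Tregs against 4.92% and 4.00%, and Neb, the gene of the muscle protein nebulin, in 48.7% at a low 27.2 ± 64.0 TPM.

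The list of costimulation genes, which holds receptors of the TNF family with Cd28, Icos, Cd2, the ligand Cd40lg and the adaptor Traf1, had the highest median difference of the lists outside the markers. Of 12 genes, 6 met the rule as higher and 1 as lower than in T follicular helper cells (median 1.56), and 4 as higher and 0 as lower than in activated cells (median 1.201). Tnfrsf4 (OX40) was found in 87.8% (80.4% to 93.2%) of Tregs, 44.3% of T follicular helper and 72.0% of activated cells, with levels of 0 TPM at the lowest, 1804 at the median and 11412 at the highest in Tregs. Tnfrsf1b (TNF receptor 2), which sustains Treg expansion, was found in 82.6% (74.4% to 89.0%), 26.2% and 56.0%, and Cd27 in 75.7% (66.8% to 83.2%), 50.8% and 52.0%. With Tnfrsf18 these were the 4 higher than in both classes. Cd2, the adhesion receptor, was found in 89.6% of Tregs. Of Tnfrsf18, Tnfrsf4, Tnfrsf9 and Tnfrsf1b, 71 Tregs had 3 and 14 had all 4. Cd40lg, the helper ligand for CD40, was found in 1 of 115 Tregs (1.92 TPM) and in 27.9% (17.1% to 40.8%) of T follicular helper cells.

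Cytokine receptor genes were led by Il2rg, the common gamma chain, and Il2rb, the beta chain of the interleukin 2 receptor. Of 24 genes, 17 were detected in at least 10% of Tregs. Against T follicular helper cells 3 were higher and 0 lower (median 0.33), and against activated cells 2 were higher and 1 lower (median 0.56). Ifngr1, the ligand-binding chain of the interferon gamma receptor, was found in 92 of 115 cells (80.0%, 71.5% to 86.9%), 14.8% (6.98% to 26.2%) of T follicular helper and 48.0% (27.8% to 68.7%) of activated cells, with means of 1118 ± 1335 TPM, 33.4 ± 129 TPM and 227 ± 380.3 TPM. Its difference of 6.67 from T follicular helper cells was above that of Foxp3. Ifngr2, the signalling chain, was found in 9.57% of Tregs and 29.5% of T follicular helper cells, at means of 0.813 and 29.3 TPM, a difference of -0.72. Il27ra and Il21r were found in 67.0% and 62.6% of Tregs without meeting the rule. Il10rb met it as higher and Socs2, a feedback inhibitor, as lower than in activated cells (2.25 and -2.32). Tgfbr3 was detected in 0 of 115 Tregs and in 21.3% of T follicular helper cells.

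Among transcription factors of the Treg lineage, Foxp3 and Ets1 met the rule as higher than in T follicular helper cells (6.44 and 2.16), of 18 genes with 16 detected in at least 10% of Tregs (median 0.06). Against activated cells Foxp3 alone did (median 0.32). Ets1 was found in 83.5% (75.4% to 89.7%), Stat3 in 52.2% and Nfatc1 in 48.7% of Tregs, and the last 2 were about as frequent in T follicular helper cells (52.5% and 59.0%). Ikzf4 (Eos), a corepressor of Foxp3, was found in 33.9% (25.3% to 43.3%) of Tregs against 11.5% and 24.0%.

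Factors of effector and tissue Tregs were each found in part of the class. Of 24 genes, 17 were detected in at least 10% of Tregs, 2 were higher and 1 lower than in T follicular helper cells (median 0.22), and 0 in either direction against activated cells (median 0.39). Maf was found in 59.1% (49.6% to 68.2%), Id2 in 58.3% (48.7% to 67.4%), Ikzf3 (Aiolos) in 56.5% (47.0% to 65.7%), Hif1a in 53.0% and Batf in 47.0% (37.6% to 56.5%). Id2 and Ikzf3 were the 2 higher genes (3.22 and 2.84). Id3, which antagonises E proteins as Id2 does, was the lower one, at 0 of 115 Tregs against 27.9% (17.1% to 40.8%) of T follicular helper cells. Prdm1 (Blimp-1), a factor of effector differentiation, was found in 37.4% (28.5% to 46.9%) of Tregs and 3.28% (0.400% to 11.3%) of T follicular helper cells, with 58.1%, 42.5% and 18.2% of Tregs by block. Activated cells had it in 28.0% (12.1% to 49.4%), at a mean of 75.9 TPM against 38.4 TPM in Tregs. Irf4, which drives effector Tregs, was found in 7.83% (3.64% to 14.3%).

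The helper lineage factors Tbx21 and Gata3 were each found in a minority of the class. Tbx21 (T-bet), which directs type 1 responses, was found in 27.8% (19.9% to 37.0%) of Tregs, against 9.84% of T follicular helper and 8.00% of activated cells. Gata3, the type 2 factor, was found in 37.4% (28.5% to 46.9%) of Tregs, 37.7% of T follicular helper and 36.0% of activated cells, about equal. Dividing cells, with more genes detected (median 3610), had Tbx21 in 51.4% and Gata3 in 57.1%. Of these factors 51 Tregs had none, 53 had 1 and 11 had both. Cxcr3, a target of T-bet, was found in 56.2% (37.7% to 73.6%) of Tregs with Tbx21 and 63.9% (52.6% to 74.1%) of those without. Gata3 was found in 34.4% and 38.6% of the same sets.

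Recirculation genes were seldom detected. Of 15 naive, central memory and recirculation genes, 4 were detected in at least 10% of Tregs, 0 met the rule as higher and 2 as lower than in T follicular helper cells (median -0.48), and 0 in either direction against activated cells (median -0.12). Those most often found were Rapgef4 (40.0%, median 0.630 TPM), Foxp1 (27.8%), Satb1 (20.0%), S1pr1, the receptor for egress (17.4% (11.0% to 25.6%)), and Lef1 (8.70% (4.25% to 15.4%)). Tcf7, which encodes the stem-like factor TCF-1, was found in 3 of 115 cells (2.61%, 0.541% to 7.43%), with a highest value of 485 TPM. In T follicular helper cells it was in 77.0% (64.5% to 86.8%) at 887 ± 879 TPM, a difference of -7.17, and in activated cells in 12.0% (2.55% to 31.2%). Ccr7, the lymph node homing receptor, was found in 1.74% (0.211% to 6.14%) of Tregs against 24.6% and 20.0%, and both its cells were in block 2. Klf2 was found in 0.870% (0.0220% to 4.75%). Of Ccr7, Tcf7, Lef1, Klf2 and S1pr1, 87 of 115 Tregs (75.7%, 66.8% to 83.2%) had none, 24 had 1 and 1 Treg had all 5.

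Follicular genes were carried in part. Of 15 genes, 11 were detected in at least 10% of Tregs, 2 were higher and 2 lower than in T follicular helper cells (median -1.46), and 1 higher and 1 lower than in activated cells (median -0.09). Folr4, the older symbol of Izumo1r (folate receptor 4), was found in 94.8% (89.0% to 98.1%) of Tregs and 75.4% of T follicular helper cells, and Angptl2 in 49.6% (40.1% to 59.0%) and 29.5%; these were the 2 higher genes. Tox and Slamf6 were found in 34.8% and 33.9% of Tregs. Cxcr5, the receptor that brings cells into the follicle, was found in 13 of 115 cells (11.3%, 6.16% to 18.6%) and 45.9% (33.1% to 59.2%) of T follicular helper cells, and Bcl6, the follicular factor, in 12.2% (6.82% to 19.6%) and 39.3% (27.1% to 52.7%). Only 1 Treg had both Cxcr5 and Bcl6. Pdcd1 was found in 10 of the 13 Tregs with Cxcr5 (76.9%, 46.2% to 95.0%) and in 37 of the 102 without (36.3%, 27.0% to 46.4%), where median gene numbers were 2393 and 1974.

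Effector cytokines were rare apart from Ltb and Ccl5. Of 15 in the table, 3 were detected in at least 10% of Tregs, with 1 higher and 1 lower than in T follicular helper cells (median 0) and 0 higher and 1 lower than in activated cells (median -0.37). Ltb, which encodes lymphotoxin beta, was found in 85.2% (77.4% to 91.1%) of Tregs. Ccl5, a chemokine for T cells, was found in 34.8% (26.1% to 44.2%) against 8.20% and 32.0%, with a highest value of 24358 TPM, and Csf1, the macrophage growth factor, in 32.2% (23.8% to 41.5%) against 9.84% and 8.00%. Ccl4 followed at 9.57% and Tnf at 6.96%. Ifng was found in 2.61% (0.541% to 7.43%) and Il21 in 2.61% (0.541% to 7.43%) of Tregs, and Il21 in 27.9% and 32.0% of the other classes. Tnfsf8, which encodes CD30 ligand, met the rule as lower in both comparisons, in 1.74% of Tregs, 50.8% of T follicular helper and 36.0% of activated cells. Il4 was detected in 0 of 115 Tregs.

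Genes that respond to the antigen receptor and to stress differed little as lists. Of 19 receptor response genes, 10 were detected in at least 10% of Tregs, and Cd5, a negative regulator of receptor signals, was the 1 that met the rule as higher than in T follicular helper cells (3.12; 79.1% (70.6% to 86.1%) of Tregs, 47.5% and 60.0%; list median 0.02). None met it against activated cells (median 0). Nfkbia was found in 64.3% of Tregs, Rgs16 in 30.4%, Irf8 in 27.0% and Egr1 in 25.2% (17.6% to 34.2%), and Nr4a1, which follows recent receptor signals, in 24.3% (16.8% to 33.2%) against 4.92% and 8.00%. Cd69 was found in 10.4% (5.51% to 17.5%). Of 14 immediate-early and dissociation genes, 7 were detected in at least 10% of Tregs and Dusp1, a phosphatase of stress kinases, was higher in both comparisons (2.70 and 2.41; 40.0% of Tregs, 11.5% and 20.0%), with list medians of 0.07 in both. Others of that list were about level with T follicular helper cells, such as Junb (60.9% and 59.0%), Zfp36 (44.3% and 42.6%), Ier2 (32.2% and 31.1%) and Dnajb1 (25.2% and 18.0%). Fos was found in 3.48% of Tregs, and Hspa1a, Hspa1b and Atf3 in 0 of 115.

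Few cells annotated as Tregs carried Mki67 or Top2a, which mark dividing cells. Dividing cells formed an annotated class of their own, and 77.1% of those had Foxp3. The low shares are therefore no measure of how often islet Tregs divide. Of 20 division genes 12 were detected in at least 10% of Tregs and 0 met the rule in either comparison (medians 0.04 and -0.11). Mki67 was found in 5.22% (1.94% to 11.0%) and Top2a, needed to part chromosomes, in 7.83% (3.64% to 14.3%). Tubb5, a tubulin, was found in 81.7%, Mcm6, a replication helicase subunit, in 45.2% and Tyms, Birc5 and Ube2c in 71.3%, 34.8% and 30.4%, the last 3 at medians where detected of 5.22, 2.13 and 3.19 TPM. Of 15 survival and death genes 12 were detected in at least 10% and 0 met the rule (medians 0.62 and 0.21). Cflar, an inhibitor of death receptors, was found in 79.1% and Bax in 40.0% of Tregs. Bcl2a1b and Bcl2a1d, near-identical copies whose reads could be split between them, were found in 72.2% and 60.9%. Bcl2, which opposes apoptosis, was found in 0.870% (0.0220% to 4.75%) of Tregs and 19.7% (10.6% to 31.8%) of T follicular helper cells.

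T cell genes were found throughout the class. All 10 T cell genes were detected in at least 10% of Tregs: Cd3g in 115 of 115, Cd3e in 99.1%, Lck in 95.7%, Cd3d in 94.8% and Ptprc in 86.1%. Cd4 was found in 82.6% (74.4% to 89.0%); it and Thy1 met the rule as lower than in activated cells (-2.02 and -2.10), where 96.0% had Cd4, and 0 genes of this list met it against T follicular helper cells (medians 0.38 and 0.25).

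The most abundant transcripts were found in nearly every Treg, while others were high in some cells and at 0 in the rest. The highest means were those of Actb (13035 ± 4968 TPM), B2m and H2-D1, followed by Eef1a1, Pfn1, Ppia, Tmsb4x, Tigit, Ubb, Srgn, Shisa5 and Lag3 (4215 ± 3090 TPM), each detected in at least 96.5% of Tregs. Among 2551 named genes found in 20% to 80% of Tregs, the highest mean where detected was that of Ccl5 (5551 TPM). Nkg7, a granule protein of cytotoxic cells, followed (5314 TPM in 69.6% of Tregs), then Ly6a (Sca-1) at 4488 TPM in 67.0%, the protease inhibitor Serpina3g at 2685 TPM in 62.6% and Il1r2 at 2165 TPM in 26.1%. S100a10, Capg, H2afz, Cdk2ap2, Crip1, Psme2 and Tspo completed the 12. Ccl5 was found in 34 of 80 Tregs with Nkg7 (42.5%, 31.5% to 54.1%) and in 6 of 35 without (17.1%, 6.56% to 33.7%), with a Spearman rho of 0.36 over the 115 cells. Of Tregs with Gzmb, 5 of 21 had Ccl5 (23.8%, 8.22% to 47.2%), and of those without it 35 of 94 (37.2%, 27.5% to 47.8%). The intervals overlapped, which does not show that Gzmb and Ccl5 were unrelated.

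**Figure D4:**
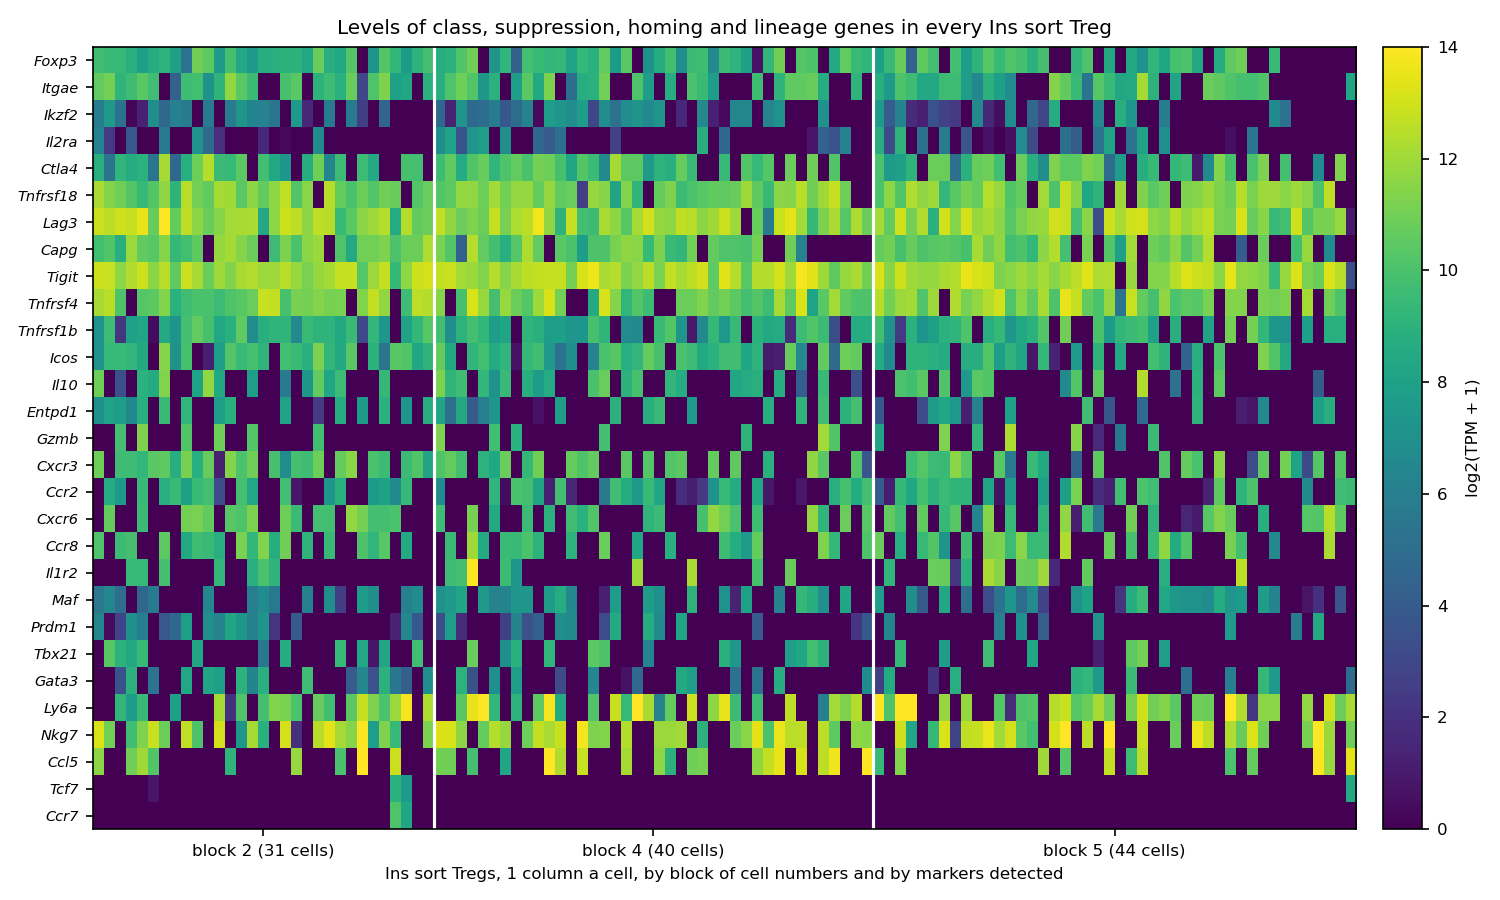
Level in log2(TPM + 1), as colour, of 29 genes (rows) in each of the 115 Ins sort Tregs (columns), by block of cell numbers and within it from the most class markers detected to the fewest. Lag3, Tigit and Tnfrsf4 run through nearly all columns, Il10, Gzmb, Il1r2, Tbx21 and Ccl5 appear in scattered cells, and Tcf7 and Ccr7 are nearly blank.

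Pairs of list genes that varied inside the class were at most weakly related. Structure over all genes was not examined. Among 64 genes found in 15% to 85% of Tregs, from the lists of effector factors, suppression, tissue, receptor response, recirculation, follicular and effector cytokine genes, there were 2016 pairs, whose Spearman rho over 115 cells lay between -0.29 and 0.37 with a median of 0.02, and none reached 0.4 in size. In sparse values such weak relations are a description only, and all pairs share the cells and their gene number. The highest were Egr1 with Il10 (0.37, both in 21 cells, 0.27 to 0.46 within blocks), Angptl2 with Ccr8 (0.33), Crip1 with S100a6 (0.32), Itgal with Itgb7 (0.32), Itgal with Entpd1 (0.32) and Sh2d1a with Nfkb2 (0.32). The lowest were Nfkbia with Ikzf3 (-0.29, both in 34 cells), Cd5 with Maf (-0.28), Csf1 with Slamf6 (-0.27), Anxa2 with Il18r1 (-0.27), Sh2d1a with Satb1 (-0.27) and Crip1 with Tbx21 (-0.27). Angptl2 with Ccr8 ran from -0.03 to 0.67 between blocks, so that value was not stable. The other named pairs kept their sign, but some also ranged widely. Crip1 with S100a6 ran from 0.05 to 0.51, Anxa2 with Il18r1 from -0.53 to -0.02, Sh2d1a with Satb1 from -0.44 to -0.05 and Crip1 with Tbx21 from -0.49 to -0.09.

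The number of tissue Treg genes in a cell followed the number of genes detected. A Treg held 14 of the 42 at the median (6 to 24), against 6 in T follicular helper and 11 in activated cells, and Spearman rho with the gene number was 0.63 over 115 Tregs. Other lists had similar values in the same cells, such as 0.68 for T cell genes and 0.61 for Treg lineage factors. The relation was therefore not particular to tissue genes, though it was 0.03 for effector cytokines. By block the median was 15, 14 and 12 in blocks 2, 4 and 5, in the order of their gene numbers. Of 174 list genes compared over blocks, the exact intervals of 2 blocks lay apart for 2, Foxp3 and Prdm1, both lowest in block 5, and 104 of the 174 shares were lowest there. The part of the gene number in these values was not tested. Restricting both classes to cells with 1500 to 3000 genes left 105 Tregs and 49 T follicular helper cells, and 136 of the 157 higher and 32 of the 33 lower genes still met the rule. Against the 20 activated cells left, 66 of the 81 higher and 18 of the 33 lower genes did, and higher genes made up 62.3% of those called in place of 71.1%.

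**Figure D5:**
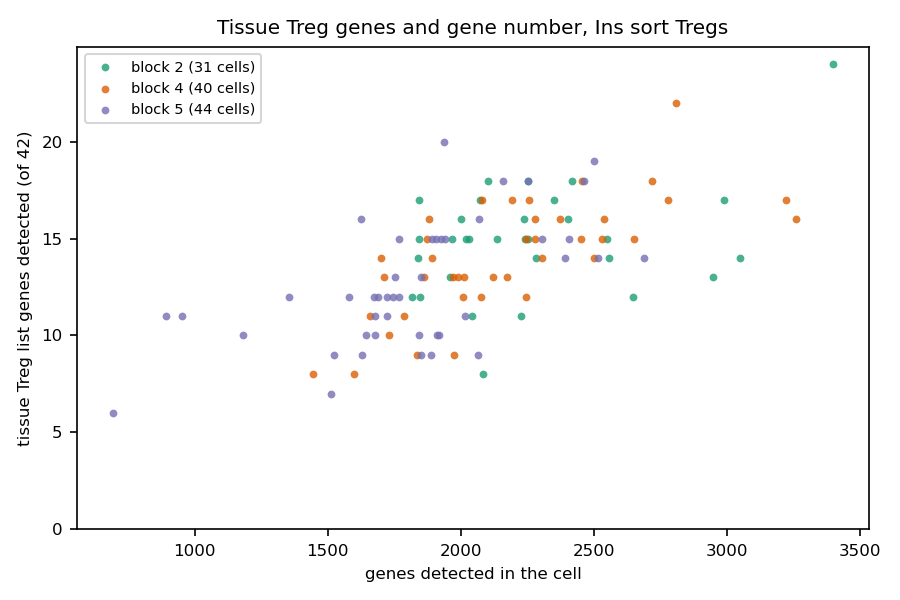
Number of the 42 tissue Treg list genes detected in a cell against the number of all genes detected in it, 1 point for each of the 115 Ins sort Tregs, coloured by block. Cells with more genes detected hold more tissue genes, and block 5 lies to the left.

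Of 43 genes listed as markers of other cells, 14 were detected in 0 of 115 Tregs. Cd79a, Ms4a1 and Sdc1 of B and plasma cells, Lyz2, C1qb, Fcer1g, Tyrobp and Aif1 of myeloid cells, Klrb1c, Klrk1 and Eomes of killer lymphocytes, and Pecam1 and Cdh5 of endothelium were each detected in 0 of 115. Of 11 B cell list genes Xbp1 (25.2%) and Cd74 (24.3%) passed 10%, of 8 myeloid genes Cst3 alone did (81.7%), of 7 other lymphoid genes Nkg7 and Cd8b1 (23.5%, median 2.47 TPM where detected), and of 3 endothelial and stromal genes none did (Epcam 8.70%). Summed TPM per cell ran from 0 to 2708 for the B cell list, 0 to 9443 for the myeloid list, 0 to 19170 for the lymphoid list and 0 to 945.2 for the stromal list. Cst3 and Nkg7 met the rule as higher than in T follicular helper cells (5.29 and 7.18), and Cst3 against activated cells (2.92). At least 1 gene of the B cell list was found in 47.0% of Tregs, 45.9% of T follicular helper and 24.0% of activated cells, of the myeloid list in 82.6%, 42.6% and 60.0%, of the lymphoid list in 75.7%, 27.9% and 72.0%, and of the stromal list in 8.70%, 24.6% and 4.00%. At least 1 of 14 endocrine or acinar genes was found in 32 Tregs (27.8%), 9 T follicular helper (14.8%) and 2 activated cells (8.00%). Their summed TPM ran up to 35309 in Tregs, 2695 in T follicular helper and 2854 in activated cells, with 3 or more genes in 7 Tregs and 8 genes in a single Treg that also held Foxp3 at 403 TPM. Ins2, an insulin gene, was found in 13.0% (7.49% to 20.6%) of Tregs at 155 ± 579.9 TPM and Sst in 0 of 115. No islet gene met the difference rule. Only 1 of the 14 was detected in at least 10% of Tregs, so a difference of that size was hardly within reach. Its absence does not show equal levels between classes. The part of islet transcripts in other values was not tested.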

How the data were processed

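Expression was deposited by the authors as natural log values, 13561 genes by 441 cells. Their exponential minus 1 summed to 100000 in every cell, so they were read as ln(TPM/10 + 1) and turned back into TPM. The submitters' processing notes list TopHat, Bowtie, RSEM 1.2.8 and mm10 and give none a role. Clustering and filters before deposit were not given in the sources used here. Class names and gene numbers came from the authors' deposited annotation. Class names matched the labels, and gene numbers matched the values above 0, in 441 of 441 cells each. No cells were identical, and the highest correlation between 2 Tregs was 0.54. No clustering, doublet caller or cell filter was run.

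Members and gene lists were chosen with earlier results of these data known. Of 325 genes on 20 lists, 298 were in the table, and Izumo1r was read under the older symbol Folr4. Named genes were the 8 markers, the 5 most often detected members of each list with those at or near 0 that its meaning needs, the 12 highest genes, the 12 highest of those detected in 20% to 80% of Tregs, and the 6 highest and 6 lowest pairs. A few others from the lists were named after their values were seen, and some list members are counted but not reported here by name. The 3-cell limit was used for shares of 0. Gene positions came from the GENCODE annotation of GRCm38. Alternatives were other detection thresholds and pseudocounts, other cell and gene sets, TPM without Rn45s and each block left out. Python 3.11.15, numpy 2.4.6, pandas 2.3.3, scipy 1.17.1 and matplotlib 3.10.9 were used.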

Additional observations from a re-analysis of the deposited data

How the results depend on the processing

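Cells of 1 sample are not replicates, so no alternative gives a test, and shares under about 3% rest on 3 cells or fewer. The share of Tregs with Foxp3 detected, 81.7%, lay between 80.5% and 83.5% under other detection thresholds, with cells of at least 1500 genes, without Rn45s and with the 3 HIP sort Tregs. It lay between 76.2% and 91.5% when a block was left out, the highest without block 5, outside the interval of the full value. Of 192 shares of 24 named genes recomputed under these alternatives, 185 stayed within the full interval. The exceptions were that of Foxp3 without block 5, Prdm1 (49.3%) and Tigit (100%) without block 5, Ccr7 (0%) without block 2, Ikzf2 at 10 TPM (47.8%), and Il1rl1 above 0 TPM (27.0%) and at 10 TPM (0%). Counts of genes past the difference rule depended on the pseudocount: 190 against T follicular helper cells became 67 with 10 TPM and 364 with 0.1 TPM, and 114 against activated cells became 23 and 329. List members past it numbered 33 in place of 52 and 6 in place of 24 with 10 TPM. The share of higher calls was 82.6% against T follicular helper cells and 71.4% in cells with 1500 to 3000 genes or without block 2. Against activated cells it was 71.1% and 49.7% without block 2. Left-out blocks gave 206 to 228 genes against T follicular helper cells and 193 to 253 against activated cells, where fewer blocks had to share a sign. Without the Tregs that held under 5 of the 8 markers, chosen after seeing the data, the counts were 198 and 130 genes. No paired analysis was possible because the result comes from no test and cells carry no shared replicate numbers.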

Other observations

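Genes outside the lists also met the difference rule. Of the 157 and 81 genes higher in Tregs than in T follicular helper and activated cells, 40 met the rule in both, of which 14 were on the lists, and those 40 were 25.5% and 49.4% of each set. The genes named next were chosen after their values were seen. Ly6a, a GPI-anchored surface protein, was found in 67.0% of Tregs (57.6% to 75.4%), 19.7% of T follicular helper cells and 12.0% of activated cells, with means of 3005 ± 5058, 278 ± 794 and 32.7 ± 157 TPM. Arl5a, a small GTPase, was found in 90.4% of Tregs (83.5% to 95.1%), 14.8% of T follicular helper cells and 40.0% of activated cells. Ecm1, a secreted matrix protein, was found in 46.1% of Tregs (36.8% to 55.6%), 3.28% of T follicular helper cells and 8.00% of activated cells, and Pglyrp1, a peptidoglycan recognition protein, in 45.2% of Tregs (35.9% to 54.8%), 8.20% of T follicular helper cells and 8.00% of activated cells.

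Others of the 40, chosen in the same way, were as follows. Gm2a, the activator of ganglioside breakdown, was found in 95.7% of Tregs (90.1% to 98.6%), 59.0% of T follicular helper cells and 80.0% of activated cells. The protease Ctss was found in 85.2% of Tregs (77.4% to 91.1%), 49.2% of T follicular helper cells and 48.0% of activated cells, and Ctsa in 76.5% of Tregs (67.7% to 83.9%), 49.2% of T follicular helper cells and 44.0% of activated cells. Pld3 was found in 66.1% of Tregs (56.7% to 74.7%), 23.0% of T follicular helper cells and 36.0% of activated cells. Cst3, an inhibitor of cysteine proteases that stood on the myeloid list, was higher in both as well.

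Of the 33 and 33 lower genes, 5 met the rule in both. Ms4a4b, a membrane protein of T cells, was found in 15.7% of Tregs (9.55% to 23.6%), 63.9% of T follicular helper cells and 72.0% of activated cells, and Tbc1d4, a regulator of glucose transporter traffic, in 9.57% of Tregs (4.87% to 16.5%), 65.6% of T follicular helper cells and 48.0% of activated cells. Tnfsf8, the tubulin gene Tuba1b and the unnamed model 1700019D03Rik were the others.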
